A study of Mus musculus with 12 samples.

Results

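Small nucleolar ribonucleoproteins (snoRNPs) are particles of a guide RNA and a fixed set of proteins that modify ribosomal RNA in the nucleolus. The genes described here encode the proteins of both classes of particle, 4 for box C/D and 6 for H/ACA, and were chosen by name as Fbl, Nop56, Nop58 and Snu13 for box C/D and Dkc1, Nhp2, Nop10, Gar1, Naf1 and Shq1 for H/ACA and its assembly. All 10 were found among the 31091 genes of the deposited P3 table. They were compared at postnatal day 3 (P3) in granule cell progenitors, which divide in the early cerebellum and give rise to its granule neurons, from mice with a conditional knockout of Znhit3 (cKO) and from control mice labelled WT, with 3 RNA sequencing libraries in each group. The series also lists 6 samples of day 6, which were not analysed here. The Cre line, the strain, any pooling of animals and the share of recombined cells are not given in the labels. Since no label ties a replicate to an animal of its own, p-values measure the spread among these libraries alone, and that spread may be technical. By Ensembl gene the set is Fbl (ENSMUSG00000046865, chromosome 7), Nop56 (ENSMUSG00000027405, chromosome 2), Nop58 (ENSMUSG00000026020, chromosome 1), Snu13 (ENSMUSG00000063480, chromosome 15), Dkc1 (ENSMUSG00000031403, chromosome X), Nhp2 (ENSMUSG00000001056, chromosome 11), Nop10 (ENSMUSG00000027133, chromosome 2), Gar1 (ENSMUSG00000028010, chromosome 3), Naf1 (ENSMUSG00000014907, chromosome 8) and Shq1 (ENSMUSG00000035378, chromosome 6).

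Box C/D particles carry guides that direct ribose methylation. Snu13 binds the kink formed by boxes C and D, Nop56 and Nop58 are paralogous scaffolds, and Fbl (fibrillarin) is the methyltransferase. H/ACA particles convert uridine to pseudouridine with the synthase Dkc1 (dyskerin), and Nhp2, Nop10 and Gar1 bind beside it. Shq1 is a chaperone of newly made Dkc1, and Naf1 holds Gar1's place until the particle matures. Znhit3 is known as a zinc-finger factor that takes part in box C/D particle assembly. Vertebrate snoRNAs commonly lie within introns of genes for ribosome and nucleolar proteins, and some lie within the genes described here.

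Guides that lie inside the scaffold genes are shown for boxes C and D, the elements that box C/D proteins assemble on. By the positions in the deposited table, 5 snoRNA genes lay within a gene of the set on the same strand: Snord110 within Nop56, Snord11, Snord70 and Gm26287 within Nop58, and Gm25520 within Dkc1. The 3 printed here, with GENCODE sequence of the GRCm38 build on the plus strand, hold an exact TGATGA (box C, near the 5′ end) and CTGA (box D, near the 3′ end), both in capitals. Snord70, also within Nop58, did not give an exact match to both.
Snord110 (in Nop56, chr2:130275506-130275573): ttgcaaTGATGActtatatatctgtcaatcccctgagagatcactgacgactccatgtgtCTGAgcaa
Snord11 (in Nop58, chr1:59704790-59704873): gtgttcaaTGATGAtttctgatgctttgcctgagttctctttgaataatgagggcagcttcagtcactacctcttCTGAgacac
Gm26287 (in Nop58, chr1:59704258-59704338): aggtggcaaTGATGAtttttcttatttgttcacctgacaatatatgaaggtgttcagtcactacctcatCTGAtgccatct
The libraries were poly(A)-selected, and the snoRNA genes had few reads. Across libraries Snord110 had 0 to 8 reads, Snord70 had 4 to 8, Gm26287 had 3 to 9, Snord11 had 0 to 5 and Gm25520 had 0 to 5. Summed over 3 libraries, Snord110 had 15 reads in cKO and 10 in control libraries, Gm26287 had 18 in cKO and 16 in control libraries, and Snord11 had 5 in cKO and 3 in control libraries. Snord70 had 15 in cKO and 20 in control libraries, and Gm25520 had 3 in cKO and 9 in control libraries. A difference between groups was not detectable at this depth.

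The 6 libraries held 29119803 to 40281292 counted reads in cKO and 32278245 to 52961445 in control samples. Znhit3 averaged 4.20 ± 0.32 FPKM in cKO and 8.78 ± 0.32 FPKM in control libraries (SD, n = 3 each), with all cKO values below all control values (exact two-sided permutation p = 0.1, the smallest that 3 against 3 allow). The summed FPKM of 8 granule progenitor markers was 822.1 to 874.6 in cKO and 1024 to 1111 in control libraries, and 3 of the 8 were called lower. Markers of other cells also moved with genotype. All 7 endothelial markers and 6 of 7 GABAergic interneuron markers were called higher, with summed FPKM of 210.6 to 227.7 in cKO against 118.0 to 129.4 in control libraries and of 128.2 to 146.2 against 95.79 to 106.3. The remaining interneuron marker, Lhx1, was called lower (log2 difference -0.29, limma adjusted p 0.0104). The sums were 637.2 to 714.1 in cKO and 1345 to 1430 in control libraries for 5 choroid plexus and ependyma markers (4 called lower), 179.5 to 210.4 and 154.0 to 155.2 for 6 microglia markers (4 higher), 94.50 to 103.0 and 75.06 to 83.05 for 5 oligodendrocyte lineage markers (4 higher), and 1654 to 1884 and 1210 to 1474 for 5 erythroid markers (4 higher). They were 745.2 to 784.5 in cKO and 735.4 to 764.8 in control libraries for 5 astroglial markers (3 higher) and 8.66 to 9.20 and 6.79 to 7.73 for 5 Purkinje cell markers. Of the Purkinje cell markers Calb1 and Car8 were called higher, and Pcp2, Skor2 and Foxp2 averaged below the 1 FPKM used as a filter. Some uncalled markers went against their lists: Gli1 (progenitor, log2 difference 0.02), Foxj1 (choroid plexus and ependyma, 0.18), Pdgfra (oligodendrocyte lineage, -0.13), Hba-a2 (erythroid, -0.28) and Fabp7 (astroglia, -0.08). The authors' deposited table calls Pdgfra and Fabp7 lower. No marker list was at 0 in either group. In bulk samples fewer cells of a type and less RNA per cell cannot be told apart.

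At P3, 1 of the 10 snoRNP protein genes, Snu13, was lower in cKO progenitors, and the other 9 did not pass the test, with differences in both directions. FPKM is a read count scaled by gene length and by library depth. Each difference is the cKO mean less the control mean of log2(FPKM + 1), tested with limma over all 13538 genes that averaged at least 1 FPKM. All 10 genes passed that filter. Snu13 was called lower, with an adjusted p (Benjamini-Hochberg) below 0.05, and the other 9 were not called. Of all tested genes 19.1% were called, 5.74% lower and 13.4% higher, beside which 1 of 10 lower is close to the background. The split over all genes moved with scaling, from 777 lower and 1813 higher here to 549 and 2448 with TPM scaling and 823 and 1083 with quantile normalization. The differences were negative for 9 of the 10, with a median of -0.12, while 42.1% of all tested genes had a negative difference and the median of all was 0.03.

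**Figure D1:**
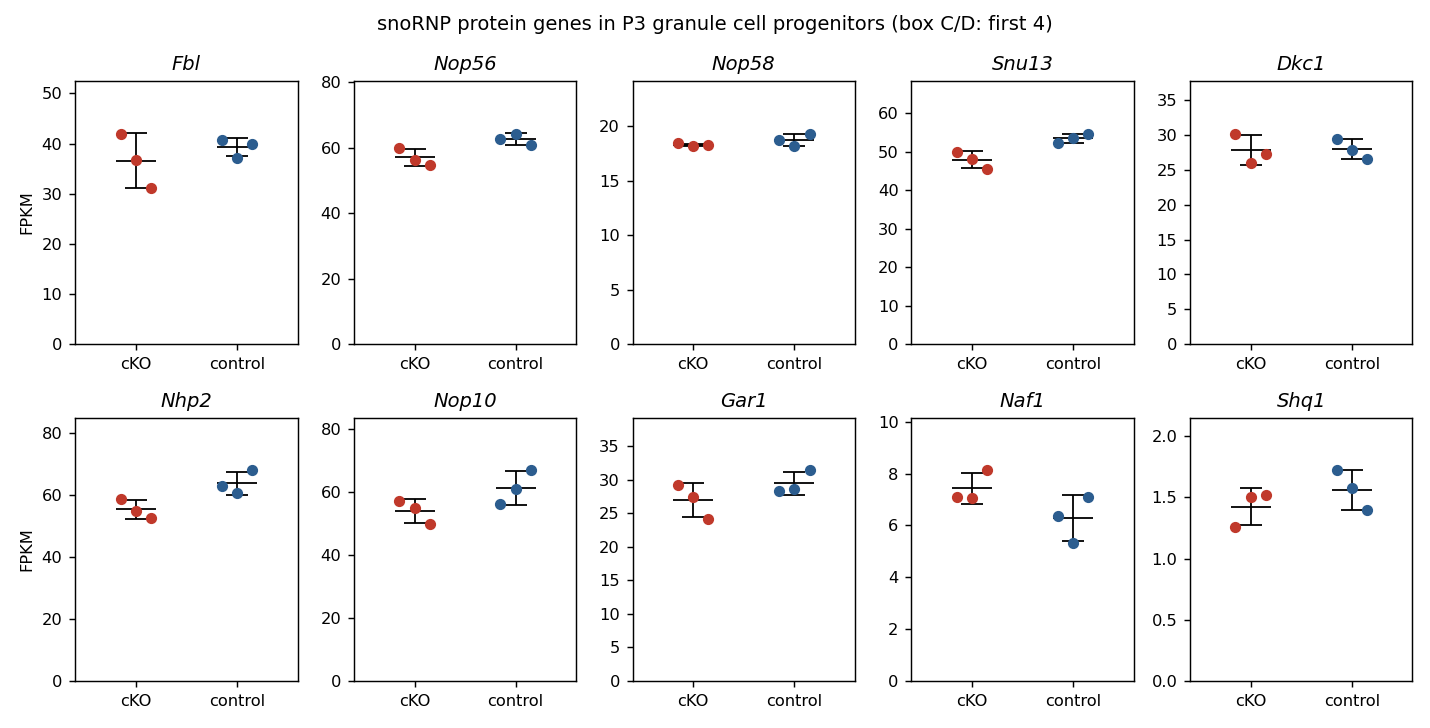
FPKM of each snoRNP protein gene (vertical axis from 0) in the 3 cKO and 3 control libraries at P3, with the mean and SD as bars. Snu13, Nop56 and Nhp2 are the 3 genes whose cKO values all lie below the control values, and Naf1 is the only 1 of the 10 with a higher cKO mean.

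Of the box C/D proteins, Snu13 and Nop56 had lower levels in every cKO library than in any control library. Snu13 measured 50.0, 48.0 and 45.5 FPKM in cKO and 52.3, 53.5 and 54.6 FPKM in control libraries. Its mean in cKO was 89.4% of that in controls, with a log2 difference of -0.16 ± 0.05 (SE), a 95% interval of -0.27 to -0.05 and a limma adjusted p of 0.0485. The highest cKO value stood 4.52% below the lowest control value. Besides its place in snoRNPs, Snu13 binds U4 small nuclear RNA in the spliceosome. That call was lost when any library but cKO replicate 1 was left out (adjusted p 0.0686 to 0.135), and also with quantile normalization (0.175) or TPM scaling (0.0837), where the difference was -0.10 and -0.12. The part of the marker shifts given above in this difference was not tested.

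Nop56 measured 60.0, 56.3 and 54.8 FPKM in cKO and 62.8, 64.3 and 60.8 FPKM in control libraries. Groups did not overlap, but they lay close together, with the lowest control value 1.21% above the highest cKO value. The log2 difference was -0.13 ± 0.05 (SE), with a 95% interval of -0.24 to -0.02 and a limma adjusted p of 0.0875. Its paralogue Nop58 measured 18.4, 18.2 and 18.3 FPKM in cKO and 18.7, 18.2 and 19.3 FPKM in control libraries. Control replicate 2 lay below all cKO libraries, so the groups overlapped, and the 95% interval of the log2 difference was -0.13 to 0.06 (limma adjusted p 0.608). The difference of -0.03 became -0.12 after removal of a gene length trend (limma adjusted p 0.0786) and 0.0072 with TPM scaling. Fbl was the most variable of the class in cKO: its values were 42.0, 36.8 and 31.1 FPKM in cKO and 40.8, 37.2 and 40.0 FPKM in control libraries. The cKO libraries thus included both the highest and the lowest level of the methyltransferase, and the 95% interval of -0.33 to 0.11 is the widest of the box C/D genes. Without cKO replicate 1 the difference of -0.11 became -0.21, and without cKO replicate 3 it was -0.00045.

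Among the H/ACA proteins, Nhp2 had the largest negative difference of the 10. This RNA-binding protein of the L7Ae family, to which Snu13 also belongs, measured 58.7, 54.7 and 52.6 FPKM in cKO and 62.7, 60.6 and 67.8 FPKM in control libraries. All cKO values lay below the control values, at 86.9% of the control mean. The log2 difference was -0.20 ± 0.06 (SE), with a 95% interval of -0.34 to -0.06 and a limma adjusted p of 0.0503, just outside the threshold. Nop10, the smallest protein of the particle, measured 57.1, 55.0 and 49.9 FPKM in cKO and 56.1, 61.1 and 66.9 FPKM in control libraries. Control replicate 1 lay within the cKO range, and the log2 difference of -0.18 ± 0.07 (SE) had a limma adjusted p of 0.124. Gar1, the subunit that Naf1 precedes, measured 29.1, 27.5 and 24.1 FPKM in cKO and 28.3, 28.6 and 31.4 FPKM in control libraries. Its groups overlapped as well, with a log2 difference of -0.13 ± 0.07 (SE) and a limma adjusted p of 0.247. Without cKO replicate 3 the difference was -0.05, and without control replicate 3 it was -0.08.

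Dkc1, the catalytic subunit, stood at the control level on average, with 30.2, 25.9 and 27.3 FPKM in cKO and 29.4, 27.9 and 26.6 FPKM in control libraries. The groups overlapped fully and the 95% interval of the log2 difference was -0.16 to 0.14. Its sign, -0.01 here, turned positive with TPM scaling (0.03), with quantile normalization (0.002) and in 3 of 6 fits without 1 library. Dkc1 lies on the X chromosome, and genes that mark the sex of the animals moved with genotype: Xist, which silences an X chromosome in females, averaged 24.0 FPKM in cKO and 53.7 FPKM in control libraries, and the Y-linked Ddx3y averaged 12.4 and 5.28 FPKM. Their part in the Dkc1 levels was not tested. Every library held both, with Xist at 23.7 to 56.4 FPKM and Ddx3y at 4.92 to 13.8 FPKM, so each held RNA from both sexes. How many animals gave a library is not stated.

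The assembly factors of the H/ACA class went in different directions. Naf1 measured 7.10, 7.06 and 8.12 FPKM in cKO and 6.37, 5.34 and 7.12 FPKM in control libraries. Control replicate 3 lay between the cKO values, so the groups overlapped, and the log2 difference of 0.22 ± 0.09 (SE) had a limma adjusted p of 0.14. Naf1 was the only gene of the 10 with a positive difference, which held under all 19 alternatives and was called in none. It ranged from 0.12 without control replicate 2 to 0.30 without control replicate 3. Shq1 had the lowest level, 1.26, 1.50 and 1.52 FPKM in cKO and 1.72, 1.57 and 1.39 FPKM in control libraries. These rest on 310 to 424 reads in cKO and 356 to 517 reads in control libraries, the groups overlapped and the limma adjusted p was 0.537.

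**Figure D2:**
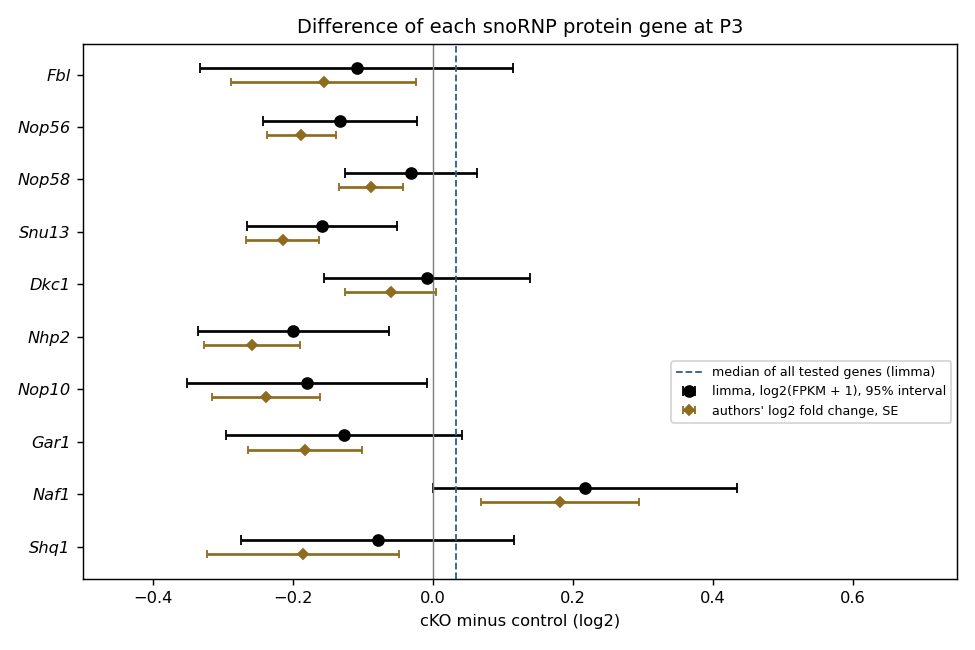
Log2 difference, cKO minus control, of each gene from limma on log2(FPKM + 1) with its 95% interval (circles), and the log2 fold change with its standard error from the authors' deposited table (diamonds), with the median of all tested genes as a dashed line. The interval of Snu13 is -0.27 to -0.05 and that of Naf1 lies almost wholly above 0.

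A larger part of the set was called in the authors' deposited table. There Snu13 (log2 fold change -0.22, adjusted p 0.000486), Nop56 (-0.19, 0.0014), Nhp2 (-0.26, 0.00165) and Nop10 (-0.24, 0.0128) were lower, 4 of 10, where 23.1% of the genes with an adjusted p under 1 in the authors' deposited table were called, 11.6% lower and 11.4% higher. In the authors' deposited table Gar1 (-0.18, 0.0863), Nop58 (-0.09, 0.154), Fbl (-0.16, 0.428), Dkc1 (-0.06, 0.552), Shq1 (-0.19, 0.351) and Naf1 (0.18, 0.255) were not called. The median log2 fold change of the authors' deposited table was -0.185 over the set and -0.00473 over those genes. The same 4 genes had an unadjusted limma p under 0.05, as did 12% of all tested genes in that direction, and 0 of the set had one in the other direction, as did 23.8% of all tested genes. With voom on the recovered reads Snu13, Nhp2 and Nop56 were called lower, 3 of 10, and 0 higher, where 8.25% of tested genes were lower and 19.2% higher. By class, 1 of 4 box C/D genes and 0 of 6 H/ACA genes were called lower by limma, 2 and 2 at an unadjusted p under 0.05, 2 and 1 by voom, and 2 and 2 in the authors' deposited table. The cKO values lay wholly below the control values for 3 of the 10 genes and wholly above for 0, where 13.2% and 27.3% of all tested genes did so.

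Most of the genes peaked in the same cKO library. Of the 3 cKO libraries, replicate 1 held the highest value for 8 of the 10 genes and replicate 3 the lowest for 6. Control replicates 1, 2 and 3 held the lowest value for 3, 4 and 3 genes and the highest for 3, 1 and 6. Such ranks were not computed over all tested genes, so a shift of a whole library cannot be told apart. Summed over the box C/D genes, levels were 170.4, 159.2 and 149.7 FPKM in cKO and 174.6, 173.2 and 174.7 FPKM in control libraries. The H/ACA sums were 183.5, 171.7 and 163.6 FPKM in cKO and 184.6, 185.1 and 201.2 FPKM in control libraries. No cKO sum reached a control sum in either class, and cKO replicate 1 came within 2.78 FPKM of the lowest control sum for box C/D and within 1.08 FPKM for H/ACA. This was not particular to the set. Of the partner lists described below, the sums of box C/D assembly factors, U3 and nucleolar, U4/U6 and L7Ae genes also lay wholly lower in cKO. Those of the telomerase, pseudouridine synthase and ribose methyltransferase lists overlapped between groups. The progenitor marker sum was also highest in cKO replicate 1 (874.6 FPKM) and lowest in cKO replicate 3 (822.1 FPKM). So were the GABAergic interneuron, microglia and oligodendrocyte lineage sums. The endothelial, astroglial and choroid plexus sums were instead lowest in cKO replicate 1, and the erythroid and Purkinje cell sums in cKO replicate 2. Of all libraries, cKO replicate 3 had the fewest reads. The part of cell content or of read number in the snoRNP levels was not tested. Without cKO replicate 1 the set's median difference was -0.18, and without cKO replicate 3 it was -0.08.

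By the deposited gene lengths, the order of levels within the set was almost the same in both groups. Other transcript lengths change the levels and their order, as given under Other observations. In cKO libraries Nop56 averaged 57.0, Nhp2 55.3 and Nop10 54.0 FPKM, with overlapping ranges, followed by Snu13 at 47.8, whose range met that of Nop10. Fbl (36.6 FPKM) stood apart below them, then Dkc1 (27.8) and Gar1 (26.9) with overlapping ranges, then Nop58 (18.3), Naf1 (7.43) and Shq1 (1.43), each apart. In control libraries Nhp2 (63.7 FPKM), Nop56 (62.6) and Nop10 (61.4) again overlapped and the rest followed as in cKO, except that Gar1 (29.4) stood before Dkc1 (28.0) with overlapping ranges. Among all tested genes the control levels of Nhp2, Nop56, Nop10, Snu13 and Fbl were at the percentiles 95.0, 94.9, 94.8, 93.6 and 90.5. Naf1 and Shq1 were at the percentiles 46.2 and 10.6.

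Ratios of the genes within a library do not depend on how that library was scaled. Their size does depend on the gene lengths used. These 10 ratios were chosen after the values were seen. Snu13 to Nop58 was 2.71, 2.64 and 2.49 in cKO and 2.80, 2.95 and 2.83 in control libraries. Nhp2 to Dkc1 was 1.95, 2.11 and 1.92 in cKO and 2.13, 2.17 and 2.55 in control libraries. Both ratios were lower in every cKO library than in any control library. Naf1 to Gar1, the assembly factor against the subunit that takes its place, was 0.244, 0.257 and 0.337 in cKO and 0.225, 0.186 and 0.227 in control libraries, and was higher in every cKO library. In each of these 3 the exact two-sided permutation p was 0.1, the smallest that 3 against 3 libraries allow. After Benjamini-Hochberg adjustment over the 10 ratios it was 0.333. No ratio could pass the threshold used for the genes, whatever its values, so this test cannot decide whether a ratio differs. The other 7 ratios overlapped between groups, among them Fbl to Nop58, with 2.28, 2.02 and 1.70 in cKO and 2.18, 2.05 and 2.07 in control libraries. Leaving out any 1 library kept the log2 ratio difference between 0.24 and 0.47 for Naf1 to Gar1, between -0.16 and -0.09 for Snu13 to Nop58 and between -0.24 and -0.11 for Nhp2 to Dkc1. These 3 were singled out on the same libraries, so the ranges are not a separate test. How often ratios of other gene pairs separate the groups was not computed.

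**Figure D3:**
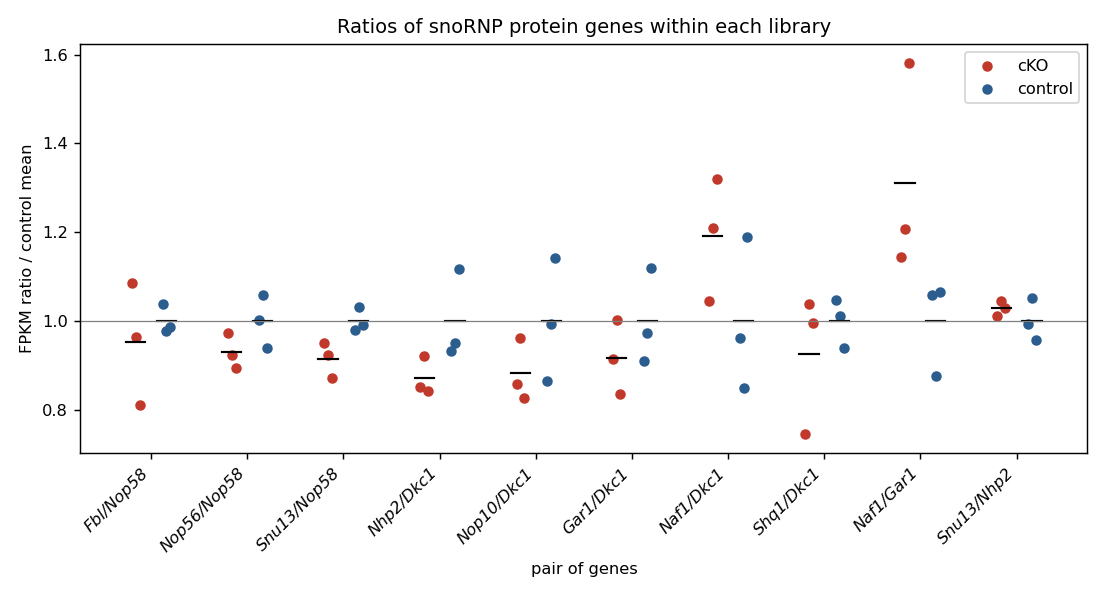
FPKM ratios of gene pairs within each library, divided by the mean ratio of the 3 control libraries, with the group mean as a line. Naf1 to Gar1 lies higher in all 3 cKO libraries, and Snu13 to Nop58 and Nhp2 to Dkc1 lie lower in all 3.

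The promoters of the 2 genes with the smallest p, both encoding L7Ae-family proteins, are printed from 250 bases before to 50 bases after the RefSeq start, in the GRCm38.p6 build, with CGGAAG or its reverse complement CTTCCG in capitals.
Snu13 (chr15:82047549-82047848, minus strand): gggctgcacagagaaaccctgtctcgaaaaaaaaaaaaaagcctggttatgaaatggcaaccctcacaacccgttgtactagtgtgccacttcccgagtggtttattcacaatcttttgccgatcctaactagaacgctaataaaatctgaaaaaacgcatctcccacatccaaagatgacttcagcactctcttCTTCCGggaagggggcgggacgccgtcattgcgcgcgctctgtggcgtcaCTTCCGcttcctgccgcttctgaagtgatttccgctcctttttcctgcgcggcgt
Nhp2 (chr11:51619523-51619822, plus strand): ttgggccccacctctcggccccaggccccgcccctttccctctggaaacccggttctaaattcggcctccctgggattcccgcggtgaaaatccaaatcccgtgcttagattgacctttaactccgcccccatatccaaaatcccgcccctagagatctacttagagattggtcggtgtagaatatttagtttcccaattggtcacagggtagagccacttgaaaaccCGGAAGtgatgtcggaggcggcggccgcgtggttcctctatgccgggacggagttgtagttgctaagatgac
RefSeq promoters were matched for 8 of the 10 genes, and where a gene has several the first listed was used. CGGAAG, a core bound by ETS-family factors, was searched on both strands and found in 5 of the 8, namely Snu13, Nhp2, Nop10, Gar1 and Shq1. It was present in 17.2% of all 27025 promoters and in 32.1% of those of genes that averaged at least 1 FPKM. Nop56, Nop58 and Dkc1 did not hold these letters in this window. TTCCGG, whose reverse complement CCGGAA shares CGGAA with that motif, was found in 5 of the 8, Nop58 among them. It was present in 28.4% of the promoters of genes that averaged at least 1 FPKM. CCAAT was found in 4 of the 8 and in 39.1% of the promoters of such genes. CACGTG, the E-box letters bound by Myc proteins, was found in 0 of the 8 and in 10.2% of the promoters of such genes. Motifs were chosen after the promoters were read. The matches are a description of the letters, and the genes with them include called and uncalled ones.

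The partners of the snoRNP proteins were taken from 7 lists of 59 genes written from general knowledge, of which 55 were tested. Of them 3 were called lower, the knocked-out gene Znhit3 among them, and 2 higher. Over all tested genes 5.74% were lower and 13.4% higher. The lower calls, even with Znhit3 counted, are thus not above the background, and the higher calls are below it. Among box C/D assembly factors 1 of 9 tested genes was lower, Znhit3 itself, and 0 were higher, with a median of -0.07. The authors' deposited table calls 3 of that list lower. U4/U6 and tri-snRNP proteins, which share Snu13 with the snoRNPs, had 1 of 8 lower and 0 higher: Ppih, a cyclophilin of that particle, measured 22.5, 23.4 and 22.8 FPKM in cKO and 24.5, 28.5 and 26.3 FPKM in control libraries, without overlap (log2 difference -0.20, limma adjusted p 0.0478). Its call was lost in 5 of 6 fits without 1 library (all but that without control replicate 1, with limma adjusted p up to 0.121). It was also lost with no filter, quantile normalization, TPM scaling, no intensity trend, the replicate block or removal of a length trend. The authors' deposited table calls 3 of the U4/U6 list lower, Ppih among them. Among L7Ae-domain relatives 1 of 6 was higher and 0 lower: Secisbp2l, a relative of the selenocysteine insertion factor, measured 12.6, 12.9 and 13.0 FPKM in cKO and 11.7, 11.0 and 11.1 FPKM in control libraries (0.18, limma adjusted p 0.0278). Its call was lost without cKO replicate 2 or 3 or control replicate 2 or 3 (limma adjusted p up to 0.097). It was also lost with no filter, quantile normalization, the replicate block or removal of a length trend, where the difference was 0.10. The authors' deposited table calls 2 L7Ae relatives lower, the ribosomal protein genes Rpl7a and Rpl30, and 1 higher, Secisbp2l.

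Of the other RNA-modifying enzymes listed, Trub2, a pseudouridine synthase that works without guides, was higher, 1 of 11 such synthases tested. It measured 6.61, 6.88 and 6.32 FPKM in cKO and 5.67, 5.97 and 5.46 FPKM in control libraries (log2 difference 0.18, limma adjusted p 0.0462). That call was lost under 12 of 19 alternatives, each library left out among them (adjusted p 0.062 to 0.151), and the authors' deposited table does not call Trub2 (adjusted p 0.1) or any other gene of its list. Fbll1, the fibrillarin-like paralogue of Fbl, was the only 1 of 7 ribose methyltransferase genes called, and lower. It measured 3.39, 4.06 and 3.27 FPKM in cKO and 4.72, 5.15 and 5.41 FPKM in control libraries. All cKO values lay below the control values, with a log2 difference of -0.42 ± 0.08 (SE) and a limma adjusted p of 0.011, while the values of Fbl overlapped. Fbll1 stayed called under all 18 alternatives in which it was tested. The authors' deposited table calls 2 of this list lower, Fbll1 among them. The test of the difference between Fbl and Fbll1 was not run. Limma called 0 of 8 genes of the U3 snoRNP and nucleolar phosphoproteins and 0 of 6 telomerase and Cajal body genes. At an unadjusted p under 0.05 these were 0 lower and 0 higher, and 1 lower and 1 higher, voom called 0 of either list, and 1 of each was lower in the authors' deposited table, Npm1 and Wrap53. Npm1, a nucleolar chaperone and the most abundant of the nucleolar list, measured 342, 340 and 346 FPKM in cKO and 357, 353 and 358 FPKM in control libraries. Its cKO values all lay below the control values, by a log2 difference of -0.05 with a limma adjusted p of 0.39, which became 0.12 with quantile normalization. In the authors' deposited table its log2 fold change was -0.11 with an adjusted p of 0.0146. Smn1, the most abundant of the telomerase and Cajal body list, measured 19.9, 19.3 and 22.1 FPKM in cKO and 22.2, 20.7 and 21.3 FPKM in control libraries (limma adjusted p 0.452).

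**Figure D4:**
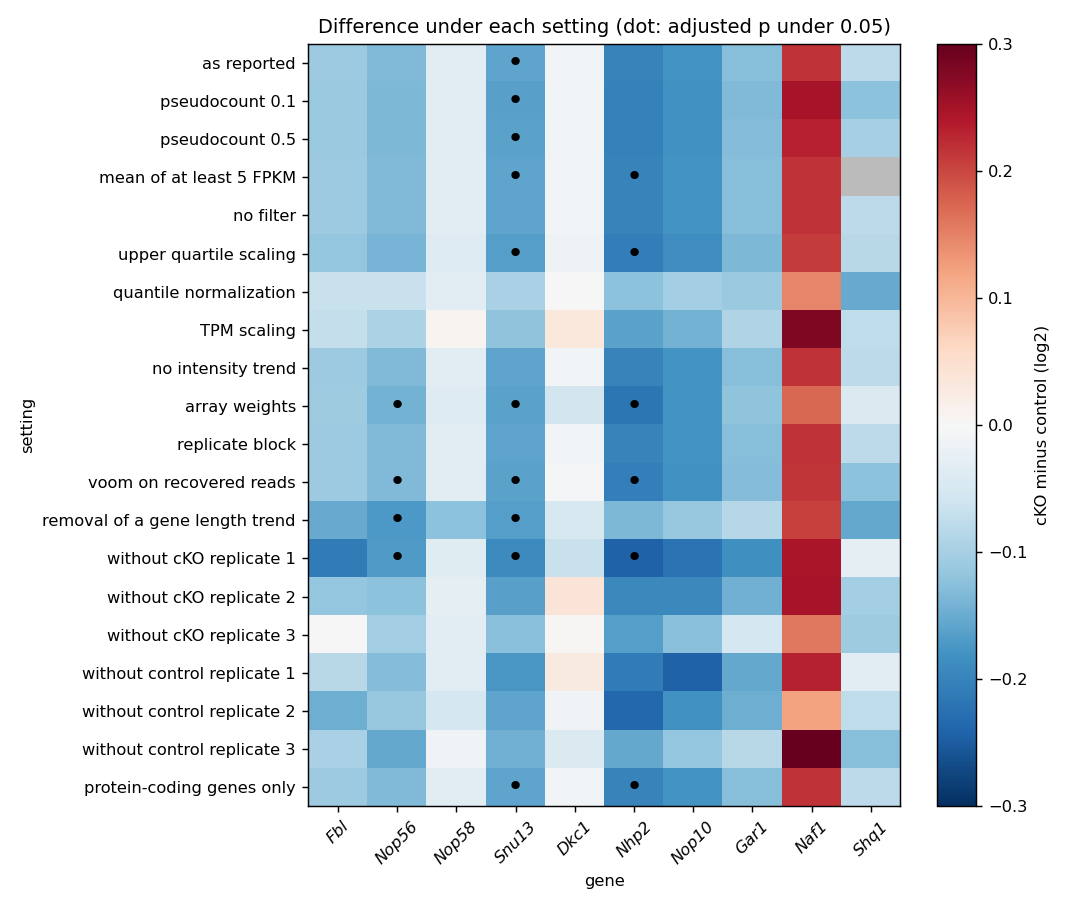
Log2 difference, cKO minus control, of each snoRNP protein gene (columns) as reported and under each of 19 alternatives, in colour, with a dot where the adjusted p is under 0.05 and grey where a gene was not tested. Snu13, Nhp2 and Nop56 are the 3 genes with a dot in any of them, and Naf1 is positive in all.

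**Figure D5:**
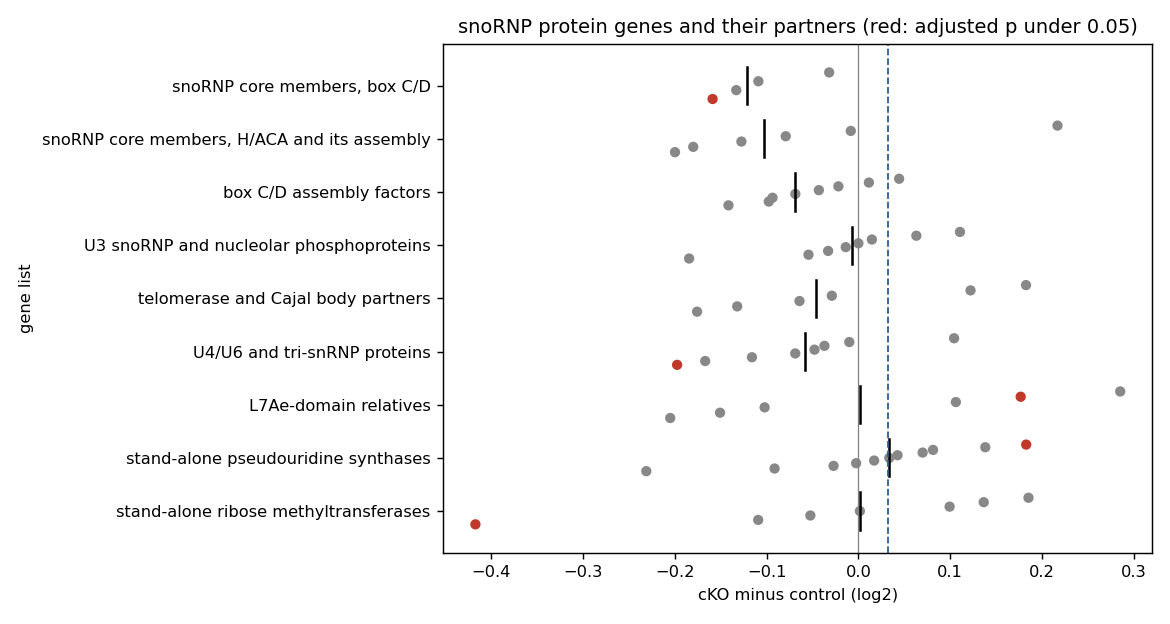
Log2 difference, cKO minus control, of each tested gene of the snoRNP protein set and of 7 lists of partners, with list medians as black lines and the median of all tested genes, 0.03, as a dashed line. Znhit3, at -0.91, is left out of the points but counted in its list's median. Medians were -0.12 for box C/D and -0.10 for H/ACA genes.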

How the data were processed

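Poly(A) RNA libraries were dUTP-marked and sequenced as pairs, per the labels' protocols. In the submitters' processing notes mm10, HISAT2 2.2.1, StringTie 2.1.6, cutadapt 1.9, edgeR and DESeq2 appear, with no role or order. Neither the annotation nor the use of strand is stated there. Of 29560 genes shared with a GRCm38 annotation, 614 had the same start and end as in the deposited table, so its positions were used only to place genes relative to each other.

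The authors deposited FPKM values for 6 libraries, per the file headers. Their deposited comparison holds a mean signal, a log2 fold change, a test score and p-values. The columns not named WT were taken as cKO, the only other P3 genotype in the labels. FPKM times the deposited gene length gave whole reads within 0.02 reads for 100% of values. At these depths 3 reads in 1 kb are 0.0566 to 0.103 FPKM, a limit set by counting error alone.

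Limma 3.58.1 in R 4.3.3 was fitted with an intensity trend to log2(FPKM + 1) of genes averaging 1 FPKM or more. Benjamini-Hochberg adjustment was over all of them at 0.05. On simulated data it recovered 0% of 50 genes changed 1.1-fold, 50% of 48 changed 1.25-fold and 97.9% of 48 changed 1.6-fold. A gene that was not called may thus still differ by such small amounts. The simulation changed few genes and gave every gene the same extra variation, whereas 19.1% of tested genes were called in the real data. Its recovery rates may thus differ from those in the real data. Replicates differed beyond counting noise in every pair (chi-square per degree of freedom 4.38 to 9.71). Alternatives were other pseudocounts, filters and scalings, no trend, array weights, a replicate block, voom, removal of a gene length trend and leaving out each library. Protein-coding genes only and the ratios were added after seeing the data. The members and lists were chosen with earlier results of these data known. Named genes were the 10 members, Znhit3, and per partner list up to 3 called genes with the smallest p or else the most abundant. Xist and Ddx3y were named after their values were seen.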

Additional observations from a re-analysis of the deposited data

How the results depend on the processing

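Under the 19 alternatives (18 for Shq1, which did not pass a filter of 5 FPKM) the differences of the 10 genes lay between -0.243 and 0.2996 on the log2 scale. Of these 189 values 163 kept their sign and their side of the threshold, 10 lost and 10 gained a call, and 6 changed sign. The number of snoRNP genes called lower, 1 as reported, was 2 with a filter of at least 5 FPKM, upper quartile scaling, removal of a gene length trend or protein-coding genes only, 3 with array weights or voom, and 0 with no filter, quantile normalization, TPM scaling, no intensity trend or the replicate block. It ranged from 0 to 3 when 1 library was left out. None was called higher under any of them.

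Snu13 lost its call with no filter and with no intensity trend (log2 difference -0.16 in both, adjusted p 0.0983 and 0.0718), with quantile normalization (-0.10), TPM scaling (-0.12) and the replicate block (-0.16, adjusted p 0.104), and it ranged from -0.19 to -0.12 with 1 library left out. Without a filter 31091 genes entered the adjustment, and the fits with 1 library left out used 5 libraries. The cause of the lost calls was not tested. Nhp2 gained a call at 5 FPKM (-0.20), upper quartile scaling (-0.21), array weights (-0.22), voom (-0.21) and among protein-coding genes (-0.20), and Nop56 with array weights (-0.14), voom (-0.13) and length trend removal (-0.17). With 1 library left out they ranged from -0.24 to -0.15 and from -0.17 to -0.11. Dkc1 turned to 0.0021 with quantile normalization and 0.032 with TPM scaling, and ranged from -0.066 to 0.039 with 1 library left out. Nop58 turned to 0.0072 with TPM scaling and was -0.12 after length trend removal. The set's median was -0.177 to -0.0795 with 1 library left out.

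Partner genes called higher, 2 as reported, were 1 with upper quartile scaling, no intensity trend, the replicate block and length trend removal, 0 with no filter and quantile normalization, 3 at 5 FPKM, TPM scaling, array weights and among protein-coding genes, and 0 to 1 with 1 library left out. Those called lower, 3 as reported, were 6 with voom, 5 among protein-coding genes and 2 to 4 with 1 library left out. By list, U4/U6 proteins called lower were 0 with no filter, quantile normalization, TPM scaling, no trend and the replicate block and in 5 of 6 fits without 1 library, and 2 with voom. Telomerase genes called lower were 1 at 5 FPKM, upper quartile scaling, quantile normalization and among protein-coding genes, and 1 was higher with array weights. L7Ae relatives called higher were 2 at 5 FPKM, TPM scaling and among protein-coding genes and 0 with no filter, quantile normalization and 4 of 6 left-out libraries, and 1 was lower without control replicate 1 and with array weights, voom and protein-coding genes. Pseudouridine synthases called higher were 0 with no filter, upper quartile scaling, quantile normalization, no trend, the replicate block, length trend removal and any library left out. Ribose methyltransferases called lower were 0 at 5 FPKM, which Fbll1 does not reach, and box C/D assembly factors called lower were 2 with voom. With the replicate block Ppih, Secisbp2l and Trub2 lost their calls (adjusted p 0.0584, 0.0739 and 0.0664). Npm1 turned to 0.118 with quantile normalization. Over all tested genes 777 were called lower and 1813 higher, against 384 and 887 with no filter, 823 and 1083 with quantile normalization, 549 and 2448 with TPM scaling, 1117 and 2601 with voom, 707 and 1126 at 5 FPKM, 1173 and 2548 with array weights, 469 and 1073 with the replicate block, 1038 and 1167 after length trend removal, and 348 to 708 and 859 to 1487 with 1 library left out. Same-numbered cKO and control libraries deviated with correlations of -0.024, 0.036 and -0.097, and other cKO and control libraries with -0.0804 to 0.109. With 3 libraries per group these values cannot decide whether the numbers pair them.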

Other observations

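The length that scales each FPKM value changes the order of the snoRNP protein genes. The deposited length of Nop58 is 10758 bases, while its complete coding transcripts in the GENCODE annotation of GRCm38 are 1713 and 9507 bases long. Divided by these, its mean level would be 115 or 20.7 FPKM in cKO and 118 or 21.2 FPKM in control libraries, against the 18.3 and 18.7 FPKM deposited. Fbl has a deposited length of 4209 bases and 1 such transcript of 1197 bases, which would put it at 129 FPKM in cKO and 138 FPKM in control libraries, close to Nop56 at 125 and 137 FPKM (4099 and 1877 bases). Snu13, at 67.3 and 75.3 FPKM, would then stand below both.

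Reads of 7 of the 10 genes could be shared with pseudogenes, found by at least 300 aligned bases at 85% identity or more. Snu13 had 11 such copies, 5 of them in the table, with 20 to 37 reads in cKO and 17 to 36 reads in control libraries, or 0.371% to 0.675% and 0.337% to 0.426% of the Snu13 reads. Nop56 had 5 copies, with 4 in the table at 0.292% to 0.495% of its reads in cKO and 0.329% to 0.401% in control libraries. For no gene did reads listed under its pseudogene copies in the table exceed 1.02% of its own. The copies of Dkc1, Nhp2 and Gar1 were not in the table, so they have no values here. That share also leaves out matches that are not pseudogenes. Gm47096, a long non-coding RNA, matches Naf1 over 509 bases at 89.4%. It had 12 to 18 reads in cKO and 7 to 24 reads in control libraries. A transcript of Tulp4 matches Fbl over 690 bases at 99.6%, and Tulp4 measured 10.4, 10.8 and 10.9 FPKM in cKO and 10.7, 9.85 and 10.2 FPKM in control libraries. How reads with several matches were placed is not stated. Neighbours on the opposite strand overlap the ends of Nop56 (Idh3b), Dkc1 (Mpp1) and Nhp2 (Rmnd5b), and with no stated use of strand their reads cannot be told apart there.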
